A study of Mus musculus with 12 samples.

Results

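The adipocyte nuclei of 2 mouse white adipose depots, lPRAT and iWAT, were compared gene by gene. The comparison used the lPRAT library and the iWAT library that share an age and a housing temperature of 22 °C. Members were chosen by measured values: a nucleus was taken as an adipocyte when its summed UMIs of Adipoq, Plin1, Plin4, Lipe, Cidec and Acsl1 reached at least 3 and exceeded its summed UMIs of Flt1, Ptprb, Lama2, Dcn, Mrc1 and Ptprc. A UMI (unique molecular identifier) stands for 1 captured RNA molecule. The rule found 2316 adipocyte nuclei among 5966 kept lPRAT nuclei (38.8%) and 5245 among 8280 kept iWAT nuclei (63.3%). These 7561 nuclei belong to 74816 adipocyte nuclei found in 106898 kept nuclei of the whole series.

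The series profiled 4 adipose depots by droplet-based single-nucleus RNA sequencing, in 12 libraries with 1 library for each combination of depot, age and temperature. The animals were males of the C57BL/6J strain fed normal chow, and no transgene or deletion is named. The pair compared here came from mice called 6-month-old in the sample titles and 16 weeks old in the sample characteristics, kept at 22 °C. A second pair of the same depots served as a partial repeat: lPRAT at 2 months and 22 °C, and iWAT at 6 months after 3 days at 4 °C. That pair shares no library with the main pair, but its members differ in age and temperature as well as depot. The labels give the depots as abbreviations, which usually stand for lateral perirenal and inguinal white adipose tissue. The other depots, mPRAT and iBAT, usually stand for medial perirenal and interscapular brown adipose tissue. The number of animals pooled into a library is not stated.

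White adipocytes store fatty acids as triglyceride in a single large droplet and release them by lipolysis. Lipolysis is switched on by catecholamines at beta-adrenergic receptors and carried out by a chain of lipases that begins with adipose triglyceride lipase. Inguinal fat is known for adipocytes that can take on a beige, heat-producing state, with Prdm16 among the transcriptional regulators of that state, while perirenal fat lies around the kidney behind the peritoneum, whose lining is mesothelium.

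The 2 sets of adipocyte nuclei were alike in depth. Their median was 6094 UMIs and 2610.5 genes per nucleus in lPRAT and 6213 UMIs and 2513 genes in iWAT, and their summed UMIs were 17038053 and 40479391. The median mitochondrial share of UMIs was 0.133% in lPRAT and 0.0548% in iWAT, and 5.29% and 2.04% of nuclei were dropped for exceeding 10%. The libraries shared 16 cell barcodes. The 2-month lPRAT library stood apart as shallow, with a median of 955 UMIs per adipocyte nucleus, and 21.4% of its nuclei exceeded the mitochondrial limit. At the threshold of the rule, the 110 lPRAT nuclei with 3 adipocyte UMIs had a median of 1003 UMIs and the 246 with 2 had 1079.5. In iWAT, 250 nuclei with 3 had a median of 846 UMIs and 255 with 2 had 758.

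The defining markers were present in both sets, as the rule required. Adipoq (adiponectin) stood at 274 CPM in lPRAT and 227 CPM in iWAT, where CPM is the count of a gene per 1000000 summed UMIs. Plin1 (perilipin on the lipid droplet) stood at 1187 and 862 CPM, Lipe (hormone-sensitive lipase) at 1414 and 1149 CPM, and Cidec (droplet fusion) at 1734 and 2073 CPM. Of the 12 genes of the rule, Plin4 was over 2-fold higher in lPRAT (2295 against 1038 CPM) and Lama2 in iWAT (6.93 against 51.8 CPM). These values belong to the rule and are not findings. The 14 adipocyte genes outside the rule were all counted in both sets, among them Pparg, the adipocyte master regulator, at 2472 and 2415 CPM.

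With 1 library per depot there is no replicate and no test. Each difference compares 2 libraries and holds the differences of animals, dissection and library preparation along with that of depot. Intervals are exact Poisson intervals for a CPM, exact conditional intervals for a ratio and exact Clopper-Pearson intervals for a share, all at 95%, and cover counting error only. Where a gene was not seen, the upper limit given is that of 3 counts, not a Clopper-Pearson bound. Genes with at least 50 UMIs over both libraries were compared, 14259 in all. A gene was called higher in a depot when the log2 ratio of its CPM, with 10 CPM added to both, reached 1. Folds given with an interval are plain ratios of CPM with nothing added. In a sum over nuclei, fewer nuclei with a gene and less of its RNA per nucleus cannot be told apart. Shares of nuclei, given further on, depend on both and do not part them either.

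By this call, 230 genes were higher in lPRAT adipocyte nuclei (1.61% of those compared) and 157 were higher in iWAT (1.1%). The median log2 ratio of all compared genes was 0.03. Differences past 4-fold were few, with 16 genes towards lPRAT and 21 towards iWAT, and past 8-fold there were 2 and 3. Of the called genes, 149 lPRAT genes and 78 iWAT genes were at least as high in the adipocyte nuclei as in the other kept nuclei of their library. The other 81 and 79 were higher in the other nuclei and are treated apart, though some of them also appear below as members of pathway lists. The genes named below come from the 15 largest differences in each direction among genes with an assigned name that were not below the other nuclei, plus members of pathway lists.

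**Figure D1:**
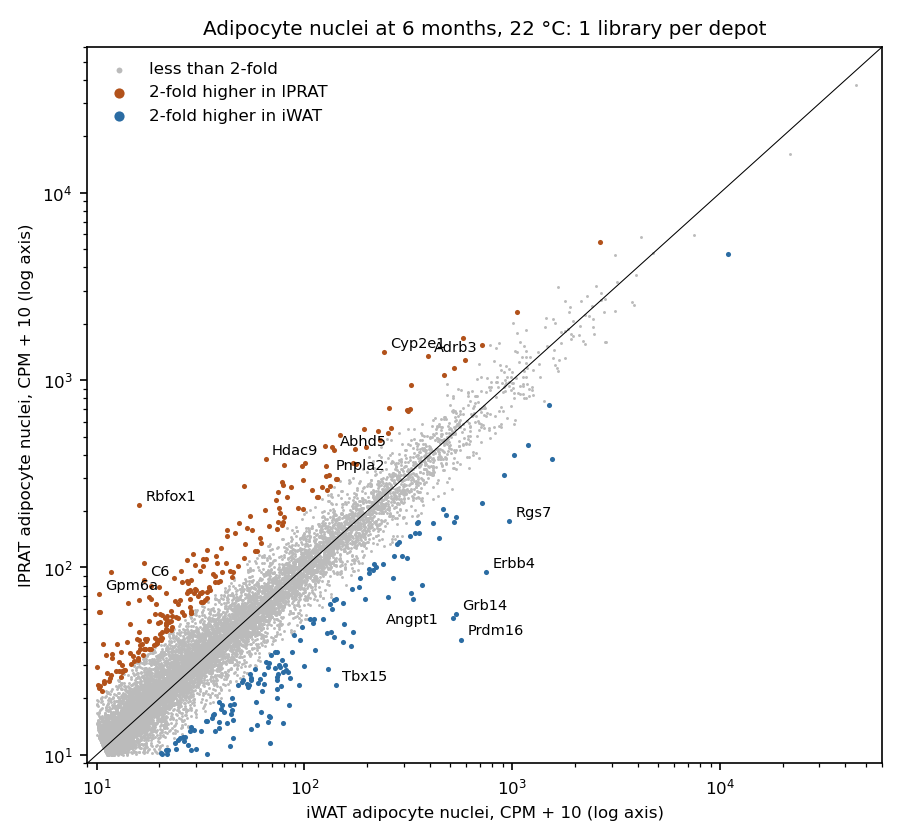
Level of each compared gene in lPRAT adipocyte nuclei (vertical axis) and iWAT adipocyte nuclei (horizontal axis), as CPM + 10 on log axes, 1 point per gene and 1 library per depot. The 230 genes called higher in lPRAT lie above the diagonal and the 157 called higher in iWAT below it, with Prdm16, Angpt1 and Grb14 farthest below it.

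Sequences are shown for 4 genes that the results turn on, 2 in each direction, as the 250 bases before their start in the RefSeq annotation of GRCm38.p6, read 5′ to 3′ on the gene's own strand. They are Prdm16 at chr4:154636874-154637123 on the minus strand and Erbb4 at chr1:69108060-69108309 on the minus strand, both higher in iWAT, and Pnpla2 at chr7:141454938-141455187 on the plus strand and Abhd5 at chr9:122351366-122351615 on the plus strand, both higher in lPRAT. Capitals mark matches, on either strand, to 5 short motifs: the E-box CACGTG, the nuclear receptor half-site AGGTCA, the GC box GGGCGG, the CCAAT box CCAAT and the TATA box TATAAA.
Prdm16: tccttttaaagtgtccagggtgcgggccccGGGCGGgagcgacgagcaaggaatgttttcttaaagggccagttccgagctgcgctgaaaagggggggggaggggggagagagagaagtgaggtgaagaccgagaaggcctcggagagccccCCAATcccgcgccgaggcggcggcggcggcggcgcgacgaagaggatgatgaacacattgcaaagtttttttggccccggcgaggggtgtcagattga
Erbb4: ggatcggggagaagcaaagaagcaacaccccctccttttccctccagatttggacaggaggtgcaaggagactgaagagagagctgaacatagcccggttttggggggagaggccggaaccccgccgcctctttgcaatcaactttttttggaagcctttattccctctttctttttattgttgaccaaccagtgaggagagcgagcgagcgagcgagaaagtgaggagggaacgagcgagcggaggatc
Pnpla2: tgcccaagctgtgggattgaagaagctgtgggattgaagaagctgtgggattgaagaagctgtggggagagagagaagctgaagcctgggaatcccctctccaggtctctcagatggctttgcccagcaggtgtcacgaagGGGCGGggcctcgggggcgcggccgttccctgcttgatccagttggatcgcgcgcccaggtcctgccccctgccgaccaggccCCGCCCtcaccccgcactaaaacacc
Abhd5: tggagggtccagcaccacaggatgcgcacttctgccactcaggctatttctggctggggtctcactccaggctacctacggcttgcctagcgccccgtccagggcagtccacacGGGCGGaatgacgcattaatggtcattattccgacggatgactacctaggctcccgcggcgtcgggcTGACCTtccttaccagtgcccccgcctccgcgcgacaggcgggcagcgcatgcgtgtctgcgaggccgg
The Prdm16 window holds 1 GC box and 1 CCAAT box, the Pnpla2 window 2 GC boxes, the Abhd5 window 1 GC box and 1 half-site, and the Erbb4 window none of the 5. Among 10702 compared genes with a window in that table, the GC box was in 57.1%, the CCAAT box in 36.3%, the half-site in 10.6%, the E-box in 8.21% and the TATA box in 6.62%. Among the 166 matched genes called higher in lPRAT the same shares were 49.4%, 36.7%, 9.64%, 7.83% and 6.63%. Among the 104 matched genes called higher in iWAT they were 56.7%, 26.9%, 7.69%, 5.77% and 9.62%. A match is a run of letters and says nothing of binding.

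Prdm16 had the largest log2 ratio in size among the named genes, -3.78. This transcriptional regulator of beige and brown adipocytes spans chr4:154316125-154636873 on GRCm38. It stood at 31.2 CPM (532 UMIs) in lPRAT and 556 CPM (22523 UMIs) in iWAT, 17.8-fold (16.4 to 19.5) higher in iWAT. The 2-month lPRAT library gave 37.6 CPM and the cold iWAT library 426 CPM. In the 4 mPRAT libraries it lay between 622 and 1023 CPM, and in the 4 iBAT libraries between 1230.1 and 2155 CPM. The 2 lPRAT libraries thus lay below all 10 other libraries, without overlap.

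Erbb4, Grb14, Rgs7 and Ntrk3 were also among the 15 largest differences towards iWAT. Erbb4, a receptor tyrosine kinase for neuregulins, spans chr1:68032186-69108059 and stood at 84.2 CPM in lPRAT and 740.2 CPM in iWAT, 8.79-fold (8.34 to 9.28). It gave 65.1 CPM in 2-month lPRAT and 729.8 CPM in cold iWAT, and the 8 mPRAT and iBAT libraries held 218 to 2386 CPM. Both lPRAT libraries were again below all the others. Grb14, an adaptor that binds the insulin receptor and dampens its signal, stood at 46.5 and 526 CPM, 11.3-fold (10.5 to 12.2), with 24.8 CPM in 2-month lPRAT and 139.6 CPM in cold iWAT. Rgs7, a regulator of G protein signalling, stood at 167 and 958 CPM, 5.74-fold (5.52 to 5.96), at 242 and 1392 CPM in the second pair and at 1174 to 3444 CPM in mPRAT and iBAT. Ntrk3, the neurotrophin-3 receptor, stood at 18.7 and 119 CPM, 6.36-fold (5.68 to 7.15), far below the 368 to 5980.2 CPM of the mPRAT and iBAT libraries. For Grb14, Rgs7 and Ntrk3 both lPRAT libraries lay below both iWAT libraries.

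Secreted and surface proteins followed. Angpt1, the ligand of the endothelial Tie2 receptor, stood at 43.7 CPM in lPRAT and 508 CPM in iWAT, 11.6-fold (10.8 to 12.5). It was not low in the younger lPRAT library, which gave 402 CPM against 1079.6 CPM in cold iWAT. Pdgfd, a platelet-derived growth factor, stood at 70.4 and 357 CPM, 5.07-fold (4.78 to 5.38), but at 77.1 and 83.0 CPM in the second pair, where the levels nearly met. Its log2 ratio was -2.19 in sums and -1.51 as the mean over nuclei. Cp (ceruloplasmin, a copper-carrying ferroxidase) stood at 27.9 and 157 CPM, 5.62-fold (5.12 to 6.18). Cdh2 (N-cadherin) stood at 6.05 and 57.5 CPM, 9.51-fold (7.80 to 11.7), and Ntm (neurotrimin, an adhesion protein) at 35.0 and 162 CPM, 4.62-fold (4.25 to 5.03). Cp, Cdh2 and Ntm were also lower in both lPRAT libraries than in both iWAT libraries. The other iWAT nuclei held nearly as much Pdgfd, Cp and Cdh2 as the adipocyte nuclei, at 339, 140 and 57.1 CPM. The other lPRAT nuclei held 491, 156 and 29.5 CPM, more than the lPRAT adipocyte nuclei.

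The remaining iWAT genes of that rank were Plcl1, Sntg2, Dlgap1, Vat1l and Smad7. Plcl1, a phospholipase C-like protein without catalytic activity, stood at 371 and 1542 CPM, 4.16-fold (4.05 to 4.27), above its 20.2 to 221 CPM in mPRAT and iBAT. Sntg2, a syntrophin, stood at 63.1 and 316 CPM, 5.01-fold (4.71 to 5.34), and the second pair gave 78.3 and 81.8 CPM. Dlgap1, a scaffold protein, was 11.5-fold (9.26 to 14.5) higher and Vat1l 14.0-fold (11.3 to 17.7) higher, from 4.93 and 4.87 CPM in lPRAT. Their log2 ratios in the second pair were -0.18 for Dlgap1, where the difference nearly vanished, and -1.45 for Vat1l. Smad7, an inhibitor of TGF-beta signalling, stood at 19.8 and 89.0 CPM, 4.50-fold (4.02 to 5.05), and in the opposite order at 22.6 and 15.5 CPM in the second pair. When the level in the immune nuclei of each library was subtracted, Smad7 and Cdh2 changed direction. The iWAT immune nuclei held 110.3 and 87.1 CPM of them, more than the iWAT adipocyte nuclei, so the subtraction set their iWAT level to 0 by construction.

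Among genes at least as high in the adipocyte nuclei as in the other nuclei of the library, Cyp2e1 and Hdac9 led those higher in lPRAT, both with a log2 ratio of 2.54. Cyp2e1 encodes a cytochrome P450 that oxidises ethanol and other small molecules and spans chr7:140763739-140774987. It stood at 1399 CPM in lPRAT and 232 CPM in iWAT, 6.02-fold (5.88 to 6.17). The second pair gave 1102 and 684 CPM, so that both lPRAT libraries exceeded both iWAT libraries. The 4 mPRAT libraries held 437 to 816 CPM and the 4 iBAT libraries 10.3 to 203 CPM, all below lPRAT.

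Several lPRAT genes were high in the 6-month lPRAT library alone among the 12. C6, a component of the complement membrane attack complex, stood at 75.4 CPM there, 6.94 CPM in iWAT, 6.77 CPM in 2-month lPRAT and 8.24 CPM in cold iWAT. Ptprk, a receptor tyrosine phosphatase, stood at 340.3 CPM against 69.5 CPM, 4.90-fold (4.68 to 5.12), and at 72.3 and 38.8 CPM in the second pair. Gprin3 stood at 264 and 68.6 CPM in the main pair, then 83.5 and 87.9 CPM in the second. Csprs stood at 29.1 CPM against 0.741 CPM (30 UMIs), and at 0.753 and 0.780 CPM in the second pair. In these 4 genes the 2-month lPRAT library lay close to the iWAT libraries, and age and library cannot be told apart.

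Other lPRAT genes kept their order in the second pair. Fam20a, a pseudokinase of the secretory pathway, stood at 58.2 and 8.18 CPM, 7.12-fold (6.28 to 8.09), and at 19.2 and 5.96 CPM. Cadps, which primes dense-core vesicles for release, stood at 99.6 and 17.2 CPM, 5.78-fold (5.29 to 6.33), and at 11.7 and 3.45 CPM, where 2-month lPRAT was under the 22 °C iWAT level. Ptchd4, a patched-domain protein, stood at 352 and 91.0 CPM, 3.86-fold (3.71 to 4.03), and at 70.4 and 58.4 CPM. There too 2-month lPRAT was under the 22 °C iWAT level. Adam15, a membrane metalloproteinase, stood at 162 and 38.3 CPM, 4.24-fold (3.98 to 4.51), and higher still at 235 CPM in 2-month lPRAT against 32.8 CPM in cold iWAT. Dcst1 stood at 137 and 32.2 CPM, 4.26-fold (3.98 to 4.57), and is the next gene to Adam15 on chromosome 3, on the same strand.

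Hdac9, Trf and Adap2 need the levels of other nuclei beside them. Hdac9, a class IIa histone deacetylase, stood at 368 CPM in lPRAT adipocyte nuclei and 55.0 CPM in iWAT, 6.69-fold (6.38 to 7.03), with 98.2 and 56.3 CPM in the second pair. Immune nuclei of the same libraries held 575 and 943 CPM of it. Trf (transferrin) stood at 274 and 68.3 CPM in adipocyte nuclei and 251 and 68.6 CPM in immune nuclei. Its log2 ratio was 1.86 in the main pair and -0.03 in the second pair, where the difference was absent. Adap2 stood at 338 and 87.2 CPM in adipocyte nuclei and 692 and 271 CPM in immune nuclei. Immune nuclei held more Hdac9 and Adap2 than adipocyte nuclei in both libraries, so their level gives no background for these 2 genes. In adipocyte nuclei with no UMI of the 6 genes of other cell types, the log2 ratios were 3.11 for Hdac9 and 1.92 for Adap2, against 2.54 and 1.84 in all adipocyte nuclei. The ratio of Hdac9 was smaller with the mean over nuclei of CPM (1.66) and after thinning each nucleus to 1000 UMIs (1.93).

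**Figure D2:**
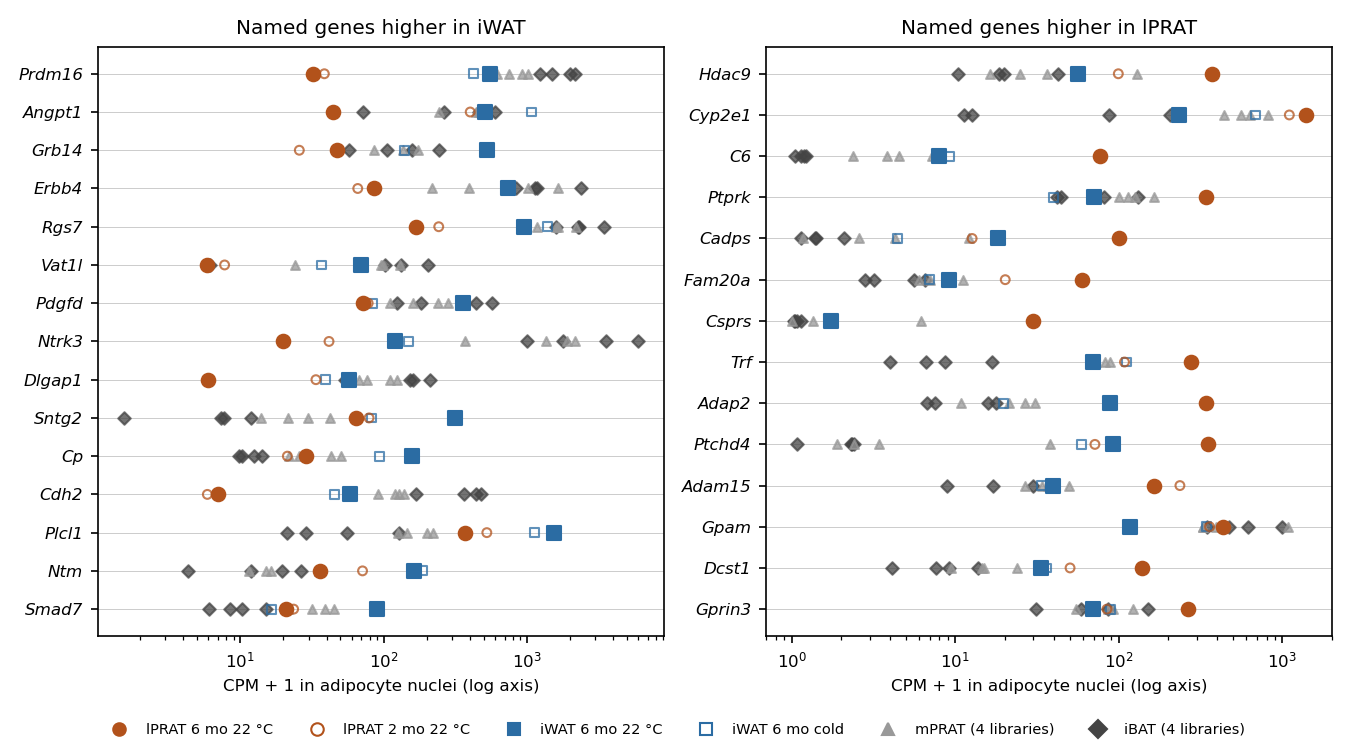
Level (CPM + 1, log axis) of the 15 named genes higher in iWAT and 14 named genes higher in lPRAT in adipocyte nuclei of all 12 libraries, 1 point per library. Filled circles are 6-month lPRAT and filled squares 22 °C iWAT, open symbols are the second pair, and triangles and diamonds are the 4 mPRAT and 4 iBAT libraries. Prdm16 and Erbb4 are lower in both lPRAT libraries than anywhere else, while C6 and Gprin3 are high in 6-month lPRAT alone.

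Lipolysis showed its main difference at the receptor and at the first lipase. Adrb3, the beta-3 adrenergic receptor, spans chr8:27225776-27250616 and stood at 1338 CPM in lPRAT and 383 CPM in iWAT, 3.50-fold (3.43 to 3.57). Its values in 2-month lPRAT and cold iWAT were 769 and 389 CPM, and the 8 mPRAT and iBAT libraries held 140.4 to 541 CPM, so the 2 lPRAT libraries were the highest of the 12. Abhd5 (CGI-58), the coactivator of adipose triglyceride lipase, stood at 412 and 129 CPM, 3.20-fold (3.09 to 3.32), but at 196 and 320.1 CPM in the second pair, in the opposite order. Pnpla2, adipose triglyceride lipase itself, stood at 303 and 122 CPM, 2.49-fold (2.40 to 2.59), and at 105 and 125 CPM in the second pair, again in the opposite order. The upstream windows of these 2 genes are among those printed above.

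The rest of the lipolysis list was divided. Of its 23 compared genes, 14 had a positive ratio and 9 a negative one, 3 were called higher in lPRAT and 0 in iWAT, against 1.61% and 1.1% of all genes, and the list's median log2 ratio was 0.12. On the lPRAT side Ptger3, a prostaglandin E2 receptor, stood at 157 and 107 CPM (log2 ratio 0.51). On the iWAT side Mgll, the monoglyceride lipase that completes the chain, stood at 814 and 1196 CPM (log2 ratio -0.55), and Pde4d, which degrades cyclic AMP, at 1308 and 1791 CPM (-0.45). Adra1a, the alpha-1A adrenergic receptor, had a log2 ratio of -0.74, and Ffar2, a receptor for short-chain fatty acids, -0.68. Npr3, the natriuretic peptide clearance receptor, stood at 1194 and 1601 CPM. The same list had a median of -0.38 in the second pair, against 0.03 over all genes there.

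Genes of fatty acid synthesis lay mostly on the lPRAT side. Of 22 compared, 19 had a positive log2 ratio, against 55.2% of all genes, and the median was 0.44. Of the 22, 2 were called in lPRAT and 0 in iWAT, against 1.61% and 1.1% of all genes. Thrsp (Spot 14, a lipogenic regulator) stood at 219 and 63.1 CPM, 3.47-fold (3.29 to 3.65), and Scd1, which desaturates stearate, at 542 and 184 CPM, 2.95-fold (2.86 to 3.04). Acacb and Acaca, the acetyl-CoA carboxylases, had log2 ratios of 0.98 and 0.43, and Fasn, fatty acid synthase, 0.94. The 3 with a negative ratio were Elovl6, an elongase, at 13.9 and 30.7 CPM (-0.77), Fads2 (-0.27) and Pnpla3 (-0.19). In the second pair 7 of 21 were positive, 0 were called in lPRAT and 4 in iWAT, against 5.53% and 2.05% of all genes, and the median was -0.21, with Thrsp at 199.8 and 254 CPM and Scd1 at 949 and 1099 CPM. Both genes were higher in cold iWAT than in any of the other 3 white libraries.

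In triglyceride synthesis the called genes were Gpam and Dgat1. Gpam, the mitochondrial glycerol-3-phosphate acyltransferase that commits acyl-CoA to glycerolipids, stood at 434 CPM in lPRAT and 116 CPM in iWAT, 3.75-fold (3.62 to 3.89). The 22 °C iWAT library was the lowest of the 12, since the second pair gave 358 and 344 CPM and the mPRAT and iBAT libraries 325 to 1087 CPM. Dgat1, which adds the last acyl chain, stood at 285 and 132 CPM, 2.15-fold (2.07 to 2.24). Lpin1, a phosphatidate phosphatase, had a log2 ratio of 0.88. The call of Dgat1 was lost with TMM scaling of the libraries (log2 ratio 0.99) and after centring on genes of like genomic span (0.96). Gpam and Dgat1 were 2 of 17 compared (1.61% of all genes were called in lPRAT), none was called in iWAT, and the median was 0.03. In the second pair the list lay the other way, with 6 of 17 positive, 0 called in lPRAT and 2 in iWAT, against 5.53% and 2.05% of all genes, and a median of -0.39.

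Lipid uptake and the white adipocyte list leaned towards lPRAT in the main pair and not in the second. In the uptake list, 19 of 21 genes had a positive ratio, against 55.2% of all genes, 2 were called in lPRAT and 0 in iWAT, and the median was 0.30. The second pair gave 8 of 20 positive, 1 called in lPRAT and 1 in iWAT, and a median of -0.23. The called genes were Slc27a1, a fatty acid transporter, at 1153 and 513 CPM (2.25-fold (2.20 to 2.29)), and Apoe at 148 and 32.5 CPM (4.55-fold (4.25 to 4.86)). Apoe is a macrophage gene too, and immune nuclei held 736 and 99.7 CPM of it. Lpl, lipoprotein lipase, and Cd36 had log2 ratios of 0.64 and 0.42. In the white adipocyte list 12 of 18 were positive, 3 were called in lPRAT and 0 in iWAT, and the median was 0.29. The second pair gave 9 of 17 positive, no call and a median of 0.0044. The share of all genes called in lPRAT was 1.61% in the main pair and 5.53% in the second, and that called in iWAT was 1.1% and 2.05%. The called white adipocyte genes beside Cyp2e1 were Slc7a10, a neutral amino acid transporter, at 1059 and 459 CPM (2.31-fold (2.26 to 2.35)), and Trim14 at 185 and 66.4 CPM (2.79-fold (2.65 to 2.94)). Both of these were higher in both lPRAT libraries, with Slc7a10 at 1039.8 and 579.7 CPM in the second pair.

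The thermogenic list leaned towards iWAT. Of its 19 compared genes, 4 were called in iWAT and 0 in lPRAT, against 1.1% and 1.61% of all genes. A negative ratio was found in 14, against 44.8% of all genes, and the median log2 ratio was -0.28. In the second pair, whose iWAT came from the cold, 10 of 19 were called in iWAT, against 2.05% of all genes, and the median was -1.29. After Prdm16 came Ppargc1a, the PGC-1 alpha coactivator of mitochondrial biogenesis, at 35.1 CPM in lPRAT and 124 CPM in iWAT, 3.53-fold (3.24 to 3.85). It stood at 33.9 and 237 CPM in the second pair and at 209 to 1465 CPM in mPRAT and iBAT. Lhx8, a homeobox gene, stood at 0.587 and 18.4 CPM, and Cidea, a droplet protein of brown adipocytes, at 3.58 and 19.5 CPM, 5.46-fold (4.20 to 7.20). The same Cidea level was 88.1 CPM in cold iWAT and 499.9 to 1196 CPM in mPRAT and iBAT. Ucp1, the uncoupling protein, was near 0 in both, at 2 UMIs (0.117 CPM) in lPRAT and 0.716 CPM in iWAT, against 106 to 1454 CPM in the mPRAT and iBAT libraries. The higher Prdm16 of the 22 °C iWAT nuclei therefore stood beside a Ucp1 level under 1 CPM.

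Secreted factors gave few calls. Of 29 compared genes 1 was called in lPRAT and 2 in iWAT, against 1.61% and 1.1% of all genes, with a median of 0.19. Hp (haptoglobin) stood at 63.2 and 21.4 CPM, 2.95-fold (2.69 to 3.23). Nrg4, a neuregulin that binds Erbb4, stood at 2000.3 CPM in lPRAT and 999.97 CPM in iWAT, a plain ratio of 2.00 (1.97 to 2.03) with a log2 ratio of 0.99, just under the call. The ligand and its receptor Erbb4 thus lay on opposite sides of the main pair. In the second pair Nrg4 was at 1865 and 2609 CPM, the opposite order, while Erbb4 kept its order. Bmp3 was 3.27-fold (2.92 to 3.67) higher in iWAT, at 20.014 and 65.4 CPM, and Inhbb, the activin B subunit, 4.58-fold (3.68 to 5.75), at 5.22 and 23.9 CPM. Lep (leptin) stood at 208 and 233 CPM, a log2 ratio of -0.16.

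Insulin signalling held single large differences around a median of -0.02. Of its 30 genes 2 were called in each direction, against 1.61% and 1.1% of all genes. Beside Grb14, Deptor, an inhibitor of mTOR, was higher in iWAT at 138 and 312 CPM, 2.26-fold (2.17 to 2.37). The imprinted adaptor Grb10, a relative of Grb14, stood at 351 and 162 CPM, 2.17-fold (2.10 to 2.25), opposite to Grb14. Its order turned in the second pair, at 207 and 263 CPM. Pik3r1, the PI3-kinase regulatory subunit, had a log2 ratio of 0.87.

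Hormone receptors and hormone-regulated genes gave 1 call in each direction among 30, against 1.61% and 1.1% of all genes, with a median of 0.03. Prlr, the prolactin receptor, stood at 69.7 CPM in lPRAT and 8.30 CPM in iWAT, 8.40-fold (7.44 to 9.51), but at 47.4 and 55.6 CPM in the second pair. Prlr was among the called genes that were higher in the other lPRAT nuclei than in the adipocyte nuclei. Hsd11b1, which regenerates active glucocorticoid, stood at 10.1 and 64.1 CPM, 6.35-fold (5.44 to 7.45), and its direction changed when the immune level (5.01 and 166 CPM) was subtracted. Of 13 glucocorticoid-induced genes 1 was called, Cebpd, at 17.7 and 3.26 CPM, and 10 had a positive ratio, against 55.2% of all genes (median 0.26). The call of Cebpd was lost after thinning (0.88) and after centring on genes of like span (0.90). The clock list of 19 also had 1 call in each direction, against 1.61% and 1.1% of all genes. Dbp was called in lPRAT at 63.3 and 17.1 CPM, 3.71-fold (3.37 to 4.09), and Hlf in iWAT at 15.025 and 63.9 CPM, 4.25-fold (3.74 to 4.85). The repressor Per2 had a log2 ratio of 0.92 and Nr1d1 0.55, while the activators Arntl, Npas2 and Clock had -0.84, -0.73 and -0.44. Over the whole clock list 11 ratios were positive and 8 negative, with a median of 0.22. In the second pair 6 of 19 clock genes were called in lPRAT and 1 in iWAT, against 5.53% and 2.05% of all genes. The hour of tissue collection is not given in the labels used here.

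Of 36 compared axial position genes 6 were called in iWAT and 1 in lPRAT, against 1.1% and 1.61% of all genes, and the median was -0.22. The second pair gave 2 calls in iWAT and 1 in lPRAT of 29, against 2.05% and 5.53% of all genes, with a median of -0.10. Tbx15, a T-box gene of trunk mesoderm, stood at 13.6 CPM in lPRAT and 132 CPM in iWAT, 9.74-fold (8.54 to 11.2), and at 36.9 and 119 CPM in the second pair. Its iWAT adipocyte level was 42.7% of that in the other iWAT nuclei. Hoxb6 stood at 3.93 and 29.0 CPM, Twist2 at 20.1 and 70.7 CPM, Hoxb3 at 5.22 and 23.4 CPM and Prrx1 at 38.3 and 87.1 CPM. Prrx1 was just past the call at a log2 ratio of -1.01 and fell below it in 6 of 14 alternative settings. Hoxb3 lost its call after thinning (-0.87). Shox2, a homeobox gene, had 2 UMIs in lPRAT and 10.5 CPM in iWAT, and was not seen in 2-month lPRAT, where 3 counts would be 1.13 CPM. Its call was lost when the immune level was subtracted (-0.91). The 1 gene called in lPRAT was Wt1, a mesothelial and renal transcription factor, whose adipocyte level was 4.65% of that in the other lPRAT nuclei and whose log2 ratio was 0.78 in nuclei with no UMI of other cell types. All 6 iWAT genes were lower in both lPRAT libraries than in both iWAT libraries.

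In the matrix and basement membrane list 2 of 33 were called in each direction, against 1.61% and 1.1% of all genes (median -0.13). The second pair gave 4 calls in lPRAT and 3 in iWAT of 30, against 5.53% and 2.05% of all genes, and a median of 0.13. Itga6, a laminin receptor subunit, was higher in lPRAT at 148 and 45.7 CPM, 3.23-fold (3.04 to 3.43), as was Timp4 at 74.1 and 27.0 CPM. Col4a1, a basement membrane collagen, was higher in iWAT at 196 and 455 CPM, 2.33-fold (2.24 to 2.42), with its partner Col4a2 at a log2 ratio of -0.85. Timp3 was higher in iWAT at 15.3 and 51.4 CPM, a call lost with the mean over nuclei of CPM (log2 ratio -0.95). Stromal nuclei express these collagens strongly, at 586 and 1131 CPM for Col4a1. Among 18 ion channel and calcium genes 2 were called in lPRAT and 1 in iWAT, against 1.61% and 1.1% of all genes. Slc8a1, the sodium-calcium exchanger, was higher in iWAT at 164 and 515 CPM, 3.13-fold (3.01 to 3.26), where immune nuclei held 990.3 and 1361 CPM. Cacna1a and Cacnb2 were called in lPRAT at 41.4 and 15.7 CPM against 10.3 and 1.61 CPM. The log2 ratio of Cacna1a was 0 when the immune level was subtracted, since immune nuclei held at least as much of it in both libraries. The call of Cacnb2 was lost in 5 of 14 alternative settings, among them leaving out nuclei with mesothelial RNA (log2 ratio 0.02) and keeping nuclei with no UMI of other cell types (0.48).

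Oxidative phosphorylation genes showed a small shift of many members. Of 30 compared genes 27 had a positive log2 ratio, against 55.2% of all genes, none was called with 10 CPM added, and the median was 0.32 against 0.03 for all genes. The largest was Cox6c at 42.3 and 16.7 CPM, a plain ratio of 2.53 (2.27 to 2.81) and a log2 ratio of 0.97 with 10 CPM added. In the second pair the median was 0.01. The ratio also varied with genomic span over all genes, since the median log2 ratio was 0.14 for genes spanning at most 8.37 kb and -0.08 for genes spanning at least 78.0 kb, the shortest and longest of 5 equal groups. The mitochondrial share was also higher in lPRAT, as given above, and Malat1, a nuclear RNA, was lower, at 37590.2 against 44872 CPM. Malat1 alone had a negative ratio among the 4 nuclear and RNA-quality genes. The other 3 were positive, 1 of them called in lPRAT, and the median of the 4 was 0.39. The part of RNA quality in the shift was not tested. After centring on genes of like span, the list's median was 0.21. Fatty acid oxidation gave 1 call of 24, Ehhadh, lost with TMM scaling (0.99), and a median of 0.07, where 1.61% of all genes were called in lPRAT and 1.1% in iWAT. Its second pair lay towards iWAT, with 2 of 24 positive, 0 called in lPRAT and 8 in iWAT, against 5.53% and 2.05% of all genes, and a median of -0.70. In hypoxia and inflammation Hp was called in lPRAT and Nedd9 and Ndrg1 in iWAT, of 21 (median -0.10), against 1.61% and 1.1% of all genes. Nedd9 and Ndrg1 each lost the call in 2 of 14 alternative settings, among them thinning (-0.98 and -0.93).

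**Figure D3:**
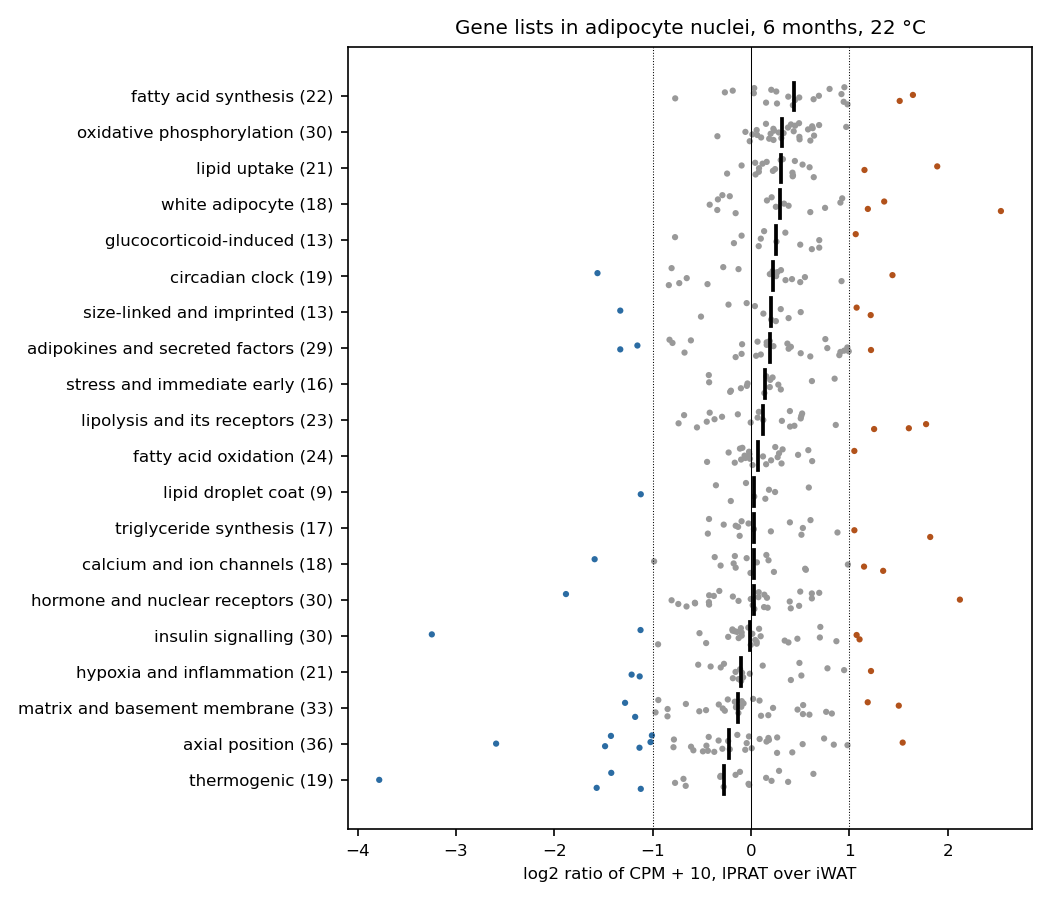
log2 ratio (lPRAT over iWAT, 10 CPM added) of each compared gene in 20 gene lists, with the number of genes in brackets and the median as a black bar. Dotted lines mark 2-fold, orange points are called in lPRAT and blue points in iWAT. Fatty acid synthesis has the highest median, 0.44, and the thermogenic list the lowest, -0.28.

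The share of nuclei in which a gene was seen followed the same order. For these shares each nucleus was thinned to 1000 UMIs, which left out 116 shallower lPRAT and 323 shallower iWAT adipocyte nuclei and kept 2200 and 4922. Prdm16 was seen in 3.32% and 41.0% of them, Erbb4 in 6.18% and 41.8%, Rgs7 in 12.4% and 50.1% and Grb14 in 4.32% and 30.6%, lPRAT first. Adrb3 was seen in 67.1% and 32.1%, Cyp2e1 in 62.9% and 19.2%, Pnpla2 in 26.7% and 11.7%, Abhd5 in 28.5% and 11.9% and Gpam in 28.6% and 10.5%. Without thinning the shares were 11.2% and 80.1% for Prdm16, 91.4% and 74.0% for Adrb3 and 83.3% and 49.7% for Cyp2e1. These genes were thus also seen in more nuclei of the depot with the higher CPM. At a fixed depth the share rises with the CPM, so it largely restates the sums. It does not part fewer nuclei with a gene from less of its RNA per nucleus.

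Immune nuclei, which should lack most of these genes, were measured the same way as a background. Their median depth was 2458 UMIs in lPRAT and 1754.5 in iWAT, and 876 and 763 were thinned to 1000 UMIs. Prdm16 was seen in 0% and 2.10% of them, Erbb4 in 0.228% and 5.11%, Adrb3 in 8.22% and 6.42% and Cyp2e1 in 4.68% and 3.8008%. For these 4 genes the adipocyte share in the depot where the gene was higher lay above both immune shares. For Prdm16, 0 of 876 lPRAT immune nuclei allows, at 3 counts, a share of up to 0.342% of nuclei with a UMI at this depth. Hdac9 was seen in 28.4% and 37.6% of immune nuclei against 19.8% and 3.88% of adipocyte nuclei, and Adap2 in 48.5% and 19.1% against 24.4% and 5.67%, so immune nuclei give no background for these 2 genes. Ucp1 was seen in 0% and 0.102%, where 0 of 2200 allows up to 0.136%.

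**Figure D4:**
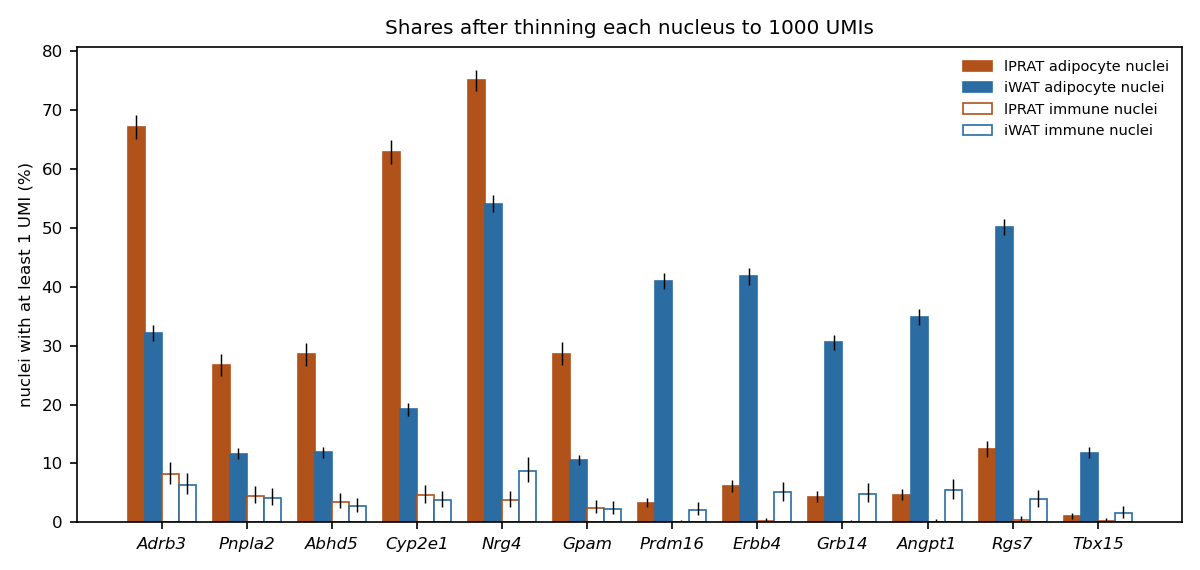
Percent of nuclei with at least 1 UMI of each gene after thinning every nucleus to 1000 UMIs, for adipocyte nuclei (filled bars) and immune nuclei (open bars) of lPRAT (orange) and iWAT (blue), with exact 95% intervals. Adrb3, Pnpla2, Abhd5, Cyp2e1, Nrg4 and Gpam are seen in more lPRAT nuclei, while Prdm16, Erbb4, Grb14, Angpt1, Rgs7 and Tbx15 are seen in more iWAT nuclei.

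Markers of other cell types differed between the libraries and touch some of the called genes. The 10 mesothelial markers summed to 171 CPM in lPRAT adipocyte nuclei and 2.17 CPM in iWAT. All 10 were counted in lPRAT, Msln had 0 counts in iWAT, and the lPRAT sum was 6.30% of that in the other lPRAT nuclei. Of 8 compared, 4 were called in lPRAT, against 1.61% of all genes. The genes higher in lPRAT but below the other nuclei were led by Rbfox1 (205 against 6.00 CPM), Il1rapl1 (84.3 against 1.70), Gpm6a (62.2 against 0.222), Dnajc6 (96.1 against 6.84) and Muc16 (48.0 against 0.296). Of these, 4 had adipocyte levels between 5.73% and 6.78% of the other lPRAT nuclei, and Dnajc6 had 51.1%. Gpm6a and Muc16 are themselves among the 10 markers, so their closeness to the share of the marker sum is partly built in. Leaving out the 126 lPRAT adipocyte nuclei with 3 or more mesothelial UMIs ended the call of Il1rapl1 (log2 ratio 3.01 before and 0.56 after). Rbfox1 stayed just past 2-fold (3.75 before and 1.09 after). Neither is a marker. The calls of Gpm6a and Muc16, whose own UMIs were part of the filter, also ended. In nuclei with no UMI of the 6 genes of other cell types, the ratios were 2.49 for Rbfox1, 1.62 for Il1rapl1, 1.48 for Gpm6a and 1.27 for Muc16. Without the nuclei with mesothelial UMIs 202 genes were called in lPRAT and 170 in iWAT, with 37 of the 40 named genes still past 2-fold.

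T or NK cell, mural and Schwann cell markers lay on the iWAT side, and B cell markers were divided. The 8 T or NK cell markers summed to 76.3 CPM in iWAT adipocyte nuclei and 4.34 CPM in lPRAT, 6.16% of the iWAT other nuclei, with Nkg7 at 0 in lPRAT and 1 count in iWAT. Of 6 compared, 3 were called in iWAT, against 1.1% of all genes, namely Skap1, Cd247 and Bcl11b. Of 7 B cell markers compared 6 had a negative ratio, with Bank1 called in iWAT (4.93 and 28.6 CPM) and Ighm in lPRAT (53.5 and 9.24 CPM). The 8 mural markers summed to 20.1 CPM in lPRAT and 64.3 CPM in iWAT, and of 5 compared all had a negative ratio and 1, Acta2, was called (13.9 and 42.7 CPM). The 6 Schwann markers summed to 318 and 349.7 CPM, which was 275% of the sum in the other lPRAT nuclei and 93.4% of that in the other iWAT nuclei. The Schwann sum was thus not particular to the other nuclei. Of 4 compared all had a negative ratio, against 44.8% of all genes (median -0.16), and 1, Cdh19, was called (1.23 and 17.5 CPM). The iWAT genes below other nuclei were led by Tbx15, Csmd1 (1.53 against 58.4 CPM), Dpt (8.33 against 74.1), Gask1b (5.99 against 58.6) and Epsti1 (4.40 against 48.9). The call of Csmd1 was lost when the summed adipocyte UMIs had to reach 6 (log2 ratio -2.57 before and -0.97 after), and that of Epsti1 in nuclei with no UMI of other cell types (-2.03 and -0.92). Stromal nuclei held 57.5 and 547 CPM of Tbx15 and 293 and 863 CPM of Csmd1, and immune nuclei 303 and 926 CPM of Epsti1. The macrophage markers summed to 73.3 and 48.1 CPM, the endothelial ones to 56.3 and 77.2 CPM and the ASPC (adipose stem and progenitor cell) ones to 589 and 895 CPM, lPRAT first. The part of these cells in the called genes was not tested beyond the alternatives given here.

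Most called genes had the same direction in the second pair. Of 223 lPRAT genes with enough counts there, 173 (77.6%) had the same direction, where 53.1% of all compared genes lay on the lPRAT side. Of these 223, 68 passed 2-fold, 30.5% of them and 10.9% of the 624 genes past 2-fold in the second pair. Of 149 iWAT genes 110 (73.8%) kept their direction and 39 passed 2-fold, 26.2% of them and 16.9% of the 231 in the second pair. In that pair 5.53% of 11288 genes passed 2-fold towards lPRAT and 2.05% towards iWAT. Both lPRAT libraries lay above both iWAT libraries for 164 of the 230 genes (71.3%, against 25.7% of all), and the reverse held for 95 of the 157 (60.5%, against 12.7% of all). The main pair chose these genes, so its share of those figures is fixed by the choice. Markers of other cells also differed within the second pair, mostly towards lPRAT. All 6 mesothelial markers compared there were called in lPRAT, as were 6 of 11 ASPC markers (median 1.61) and 4 of 6 macrophage markers (median 1.48). Stress and immediate early genes were all positive there, 11 of 11 with a median of 0.79, and their part in the agreement was not tested. The median changed sign between the pairs in 10 of 21 pathway lists.

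Many called genes differed in the same direction in stromal nuclei of the 2 libraries. Stromal nuclei with fewer than 3 mesothelial UMIs were used, 444 in lPRAT and 835 in iWAT. Of 154 lPRAT genes with at least 50 UMIs there, 130 (84.4%) had the same direction, against 57.5% of all genes, and 51 (33.1%) passed 2-fold, against 4.22%. Of 128 iWAT genes, 91 (71.1%) had the same direction, against 42.5%, and 32 (25%) passed 2-fold, against 2.66%. Prdm16 stood at 19.2 and 99.1 CPM in stromal nuclei, Grb14 at 13.1 and 151 CPM and Tbx15 at 57.5 and 547 CPM. Immune nuclei held 1.00 and 28.0 CPM of Prdm16. The called genes include the 81 and 79 that were higher in the other nuclei of their library, and the agreement was not counted without them. The part of RNA from other nuclei in the stromal values, and of stromal RNA in the adipocyte values, was not tested.

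The called genes also differed in size. The median genomic span was 26.5 kb for lPRAT genes, 109 kb for iWAT genes and 25.2 kb for all. In the longest of the 5 span groups, 76 were called in lPRAT (2.67%) and 102 in iWAT (3.58%), while in the shortest 58 were called in lPRAT (2.04%) and 2 in iWAT (0.0702%). When the median of genes of like span was subtracted, 222 and 135 genes were called, 200 and 132 of them called before.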

How the data were processed

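Nuclei of 12 mouse adipose libraries were sequenced with a droplet 3′ kit. The deposited matrices hold raw UMI counts per gene and barcode, made by the authors with Cell Ranger 7.0.0 on mm10, per the submitters' processing notes. Whether intronic reads were counted, and any filter beyond the lowest total of 500 UMIs seen per barcode, is not given in the sources used here. Library totals ran from 5461133 to 87035783 UMIs, with 26529576 in lPRAT and 47642196 in iWAT.

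Nuclei were kept from 300 detected genes upwards, up to a mitochondrial share of 10%, and adipocyte nuclei were chosen from the summed UMIs of 12 genes. Stromal, endothelial and immune nuclei were those with at least 3 UMIs of the other 6 genes, more than of the adipocyte genes, assigned by the highest pair (Lama2 and Dcn, Flt1 and Ptprb, Mrc1 and Ptprc). Counts were summed per library and scaled to CPM, and genes with at least 50 UMIs over the pair were compared as log2 ratios with 10 CPM added, called at 2-fold. No doublets were removed in the reported values. An alternative removed the highest scrublet scores (scanpy 1.11.5) at 0.8% per 1000 nuclei, and the caller's own threshold marked 2.38% and 4.14% of nuclei. TMM factors came from edgeR 4.0.16. Gene positions are GENCODE M21 on GRCm38, and promoter windows are from RefSeq on GRCm38.p6.

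The named genes are the 15 largest log2 ratios per direction among genes at least as high as in the other nuclei of the library, and the 5 largest per direction below that line. The genes of the rule, mitochondrial, ribosomal protein and sex-linked genes and models without a name were left out. From 21 pathway lists the members with the largest ratios or a central role were named, and 14 marker lists described other cells. Of the genes these rules select, 3 are not reported here. The members and lists were chosen with earlier results of these data known. The ratio calculation was tested on simulated counts.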

Additional observations from a re-analysis of the deposited data

Results flagged for a closer look

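A difference in the opposite direction in the 2 pairs of libraries set 8 genes apart. Each passed 2-fold in the main pair and passed 2-fold the other way between 2-month lPRAT and cold iWAT, and the difference between the pairs was not tested. They were picked after their values were seen. Of these, 6 were higher in lPRAT at 6 months. Steap4, a metalloreductase, stood at 336 CPM (6-month lPRAT), 116 CPM (22 °C iWAT), 227 CPM (2-month lPRAT) and 540.0 CPM (cold iWAT), with log2 ratios of 1.45 and -1.22. Dock8, an exchange factor of leukocytes, stood at 528, 215, 29.4 and 84.5 CPM in the same order (1.26 and -1.26). The fatty acid-handling genes Acad11 (1.25 and -1.09), Ehhadh (1.05 and -1.16) and Acot4 (1.03 and -1.15) shared the pattern, with Ehhadh at 228, 105, 111 and 261 CPM. The gene model 9330159F19Rik had ratios of 1.05 and -1.66.

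The other 2 were higher in iWAT at 22 °C. Arhgap15, a GTPase-activating protein, stood at 17.5, 73.6, 45.2 and 13.9 CPM (-1.60 and 1.21). The gene model Gm42418 stood at 4690.1, 10847, 79456 and 13096 CPM (-1.21 and 2.60). In the 2-month lPRAT library Gm42418 alone held 7.95% of adipocyte UMIs, in the library with the lowest depth and a median mitochondrial share of 1.63%.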

How the results depend on the processing

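The count of 230 genes called in lPRAT and 157 in iWAT depended most on the amount added before the ratio. With 1 CPM added the counts were 993 and 661, which includes many genes at low levels. Subtracting the level in the immune nuclei of each library gave 817 and 447. The other settings gave 197 to 307 genes in lPRAT and 135 to 175 in iWAT. They covered TMM scaling, the mean over nuclei, other count minimums, stricter marker rules, deeper nuclei, thinning, a lower mitochondrial limit, doublet removal, and, chosen after seeing the data, leaving out nuclei with mesothelial RNA and centring on gene span. The share of called genes that were higher in lPRAT was 59.4% as reported and lay between 53.0% (TMM scaling) and 64.6% (immune subtraction) over all settings. The 40 named genes (39 with a position in the span setting) kept their direction in every setting except the immune subtraction, where 35 did. Past 2-fold they stayed in every setting but 4, where 35 to 39 did. In the immune subtraction Hdac9, Adap2 and Epsti1 were at 0 in both depots by construction, since immune nuclei held more of them than adipocyte nuclei did. In the same setting Cdh2 reversed to a log2 ratio of 0.59 and Smad7 to 1.42, and among called list genes Hsd11b1 reversed to 0.59 and Meg3 to -0.56. In these 4 the immune level exceeded the adipocyte level in the depot where the gene was higher, which set that level to 0 by construction. Of the 46 called list genes, 29 stayed past 2-fold in every setting that gave a value. Those that did not in at least 3 of 14 settings were Prrx1 (6), Cacnb2 (5), Meg3 (4) and Ehhadh (3). List medians close to 0 changed sign in some settings, among them insulin signalling and calcium and ion channels, while those of fatty acid synthesis, lipid uptake, the white adipocyte, thermogenic, axial position and oxidative phosphorylation lists did not.

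No paired analysis was possible because each group has 1 library and the replicate number is only a name. With no replicate, the spread between animals is unknown, and counting error alone limits the intervals given. The 2-month lPRAT library, at 2657249 adipocyte UMIs, limits the second pair for genes at a few CPM, where 3 counts stand for 1.13 CPM.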

Other observations

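Imprinted and cell-size genes were 1 of the 21 pathway lists and share members with lists above, among them Bmp3, the gene called in iWAT. Of 13 compared, 2 were called in lPRAT and 1 in iWAT, against 1.61% and 1.1% of all genes, with a median log2 ratio of 0.20. Peg3 stood at 855 CPM in lPRAT and 741 CPM in iWAT, Nnat (neuronatin) at 2451 and 1879 CPM and Mest, which marks adipocyte enlargement, at 114 and 94.5 CPM. All 3 were lower in the second pair, with Mest at 15.1 and 17.5 CPM and Peg3 at 172 and 179 CPM. They thus differed more between the pairs than between the depots within a pair. Meg3, a maternally expressed noncoding RNA, was called in lPRAT at 30.3 and 7.34 CPM, where the stromal nuclei held 827 and 319.7 CPM.

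Stress and immediate early genes were low in both sets. None of 16 compared was called, against 1.61% of all genes in lPRAT and 1.1% in iWAT. A positive ratio was found in 9, near the 55.2% of all genes. The list summed to 173 CPM in lPRAT and 140.1 CPM in iWAT. At such levels the 10 CPM added shrinks the ratios, so the absence of calls says little about these genes. Hspa8, a chaperone, stood at 43.0 and 19.4 CPM and Fos at 2.58 and 1.46 CPM.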
